A study of Arabidopsis thaliana with 4 samples.

Results

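The chaperonins of plastid and mitochondrion described here are 7 nuclear genes of Arabidopsis thaliana, chosen by their locus names out of 25819 genes in the deposited table, and all 7 were found. They are the plastid subunit genes CPN60A (AT2G28000, alpha) and CPN60B1 (AT1G55490, beta), the plastid co-chaperonin CPN20 (AT5G20720), the mitochondrial subunit genes HSP60 (AT3G23990), HSP60-2 (AT2G33210) and HSP60-3A (AT3G13860), and the mitochondrial co-chaperonin CPN10 (AT1G14980). A further 7 genes of the same organelle families, listed from general knowledge, serve for comparison. Among them CPN60B2 (AT3G13470), the closest relative of CPN60B1, carries much of the plastid result.

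Chaperonins are large barrel-shaped protein folding machines that plastids and mitochondria inherited from their bacterial ancestors. Subunits of the Cpn60 type, called HSP60 in mitochondria and related to bacterial GroEL, assemble into stacked rings that enclose an unfolded protein. A co-chaperonin of the GroES type, Cpn10 in mitochondria or the double-domain Cpn20 in plastids, closes the ring like a lid while ATP is used. The plastid ring is known for mixing alpha and beta subunits and for folding the large subunit of Rubisco, and both organelles depend on their chaperonins for imported proteins.

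Transcripts were measured by RNA-seq in whole plantlets of the Columbia-0 accession, 21 days old, grown on agar with sucrose in continuous light. The 4 groups were larp1 plantlets given 15 min at 38 °C, larp1 plantlets given 15 min at 20 °C, wild-type (WT) plantlets given 15 min at 38 °C and WT plantlets given 15 min at 20 °C, all in liquid medium. LARP1 belongs to the La-related RNA-binding proteins, and headers of the deposited gene tables name the mutant larp1-1. Each group is 1 library from 1 pool of 6 to 8 plantlets, so differences are without replicates or p-values and compare single libraries rather than conditions.

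Levels are the deposited RPM (reads scaled to library size), each gene being the sum of its distinct exon entries. They rest on about 44931800 reads in larp1 at 38 °C, 74418600 reads in larp1 at 20 °C, 42608500 reads in WT at 38 °C and 46065500 reads in WT at 20 °C. Bracketed ranges are 95% counting intervals, which leave out all variation between plants and libraries. A gene is called higher or lower where it differed at least 2-fold and its interval excluded no change. LARP1A (AT5G21160), the gene that the label points to, stood at 9.29 RPM in larp1 and 33.1 RPM in WT at 38 °C, and at 9.21 RPM in larp1 and 37.1 RPM in WT at 20 °C. Its relatives LARP1B (AT5G66100) and LARP1C (AT4G35890) had log2 differences of larp1 from WT of 0.34 [0.22, 0.47] and 0.49 [0.37, 0.62] at 38 °C, and of -0.10 and -0.01 at 20 °C. The pools held green tissue and root: 6 green tissue markers summed to 23532.6 RPM (larp1 38 °C), 39432.2 (larp1 20 °C), 33398.4 (WT 38 °C) and 43102.6 RPM (WT 20 °C), and 7 root markers to 23.4, 47.4, 19.1 and 51.8 RPM in the same order. The 3 flower markers summed to 0.28 RPM or less in every library, with AP3 at 0 in both larp1 libraries. Root markers moved with heat in both directions: SCR (AT3G54220), the lowest in WT, had log2 fold changes of -1.52 in larp1 and -2.15 in WT, RHD6 (AT1G66470), the lowest in larp1, had -1.57 there, and WOX5 (AT3G11260) had 2.28 in larp1 and 2.01 in WT. Of the root markers compared, 1 was called higher and 4 lower of 6 in larp1, and 1 higher and 3 lower of 5 in WT. Fewer cells of a type and less RNA per cell cannot be told apart in these pools, and the part of tissue makeup in the results below was not tested.

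Heat split the chaperonin genes. In both genotypes 3 of the 7 genes rose by at least 2-fold at 38 °C, CPN60A in the plastid and HSP60 and CPN10 in the mitochondrion, and 0 were lower by that rule. CPN60B1, HSP60-2, HSP60-3A and CPN20 stayed within 2-fold. Of all genes compared, 4.19% were called higher and 19.8% lower in larp1 (24% in either direction), and 4.27% were called higher and 25.0% lower in WT (29.2% in either direction). The median log2 fold change of the 7 genes was 0.50 in larp1 and 0.56 in WT, beside -0.43 and -0.51 over all genes compared.

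**Figure D1:**
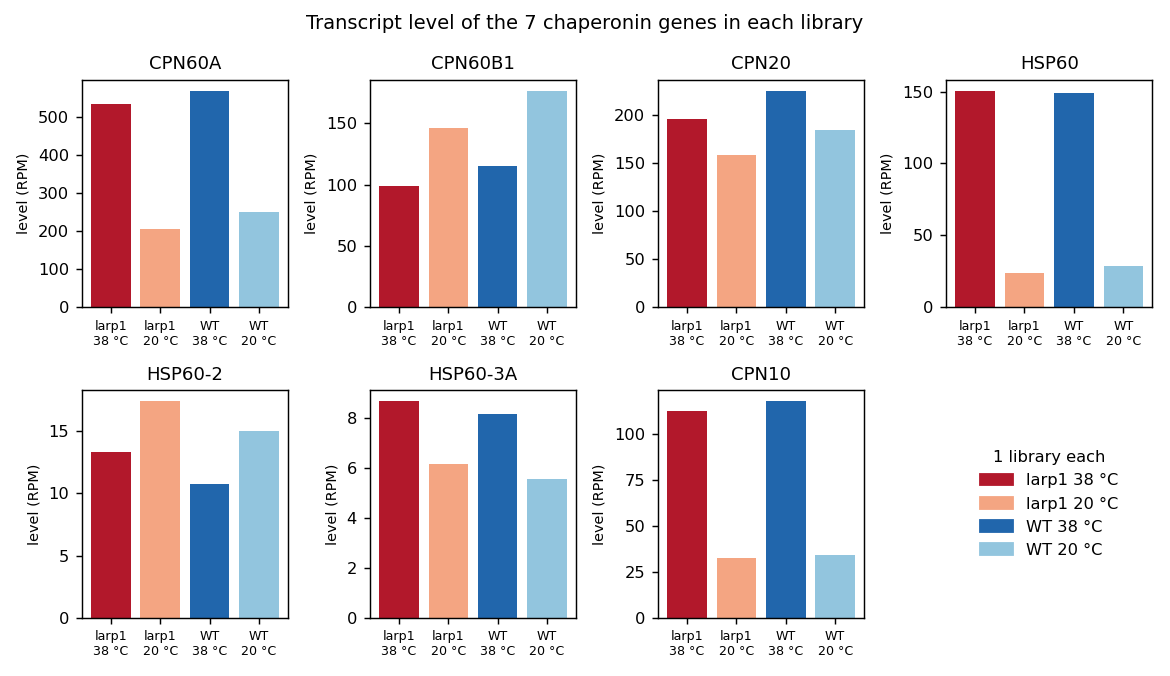
Level in RPM (vertical axis, from 0, a separate scale for each gene) of the 7 chaperonin genes in the larp1 38 °C, larp1 20 °C, WT 38 °C and WT 20 °C libraries, 1 bar per library. CPN60A, HSP60 and CPN10 have their tallest bars in the 2 heated libraries, and CPN60B1 and HSP60-2 in the 2 libraries at 20 °C.

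Among the plastid ring subunits, the alpha gene rose and the main beta gene did not. CPN60A stood at 534.0 RPM in larp1 at 38 °C, 204.4 RPM in larp1 at 20 °C, 568.8 RPM in WT at 38 °C and 248.4 RPM in WT at 20 °C. The heated libraries lay above both libraries at 20 °C, with log2 fold changes of heat of 1.39 [1.36, 1.41] in larp1 and 1.2 [1.16, 1.23] in WT. CPN60B1, whose mutants are known for leaf lesions, stood at 98.6 RPM in larp1 at 38 °C, 146.3 RPM in larp1 at 20 °C, 115.3 RPM in WT at 38 °C and 176.9 RPM in WT at 20 °C. Both heated libraries were the lower ones, with log2 fold changes of -0.57 [-0.62, -0.52] in larp1 and -0.62 [-0.67, -0.57] in WT. That is close to the median of all genes, which was -0.43 in larp1 and -0.51 in WT.

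The other beta genes show that the beta pool did not shrink. CPN60B2, which encodes another beta subunit, stood at 463.6 RPM in larp1 at 38 °C, 35.2 RPM in larp1 at 20 °C, 466.4 RPM in WT at 38 °C and 47.5 RPM in WT at 20 °C. It rose with a log2 fold change of 3.72 [3.66, 3.78] in larp1 and 3.29 [3.23, 3.36] in WT, the largest of the 14 plastid and mitochondrial chaperonin genes in both genotypes. CPN60B3 (AT5G56500) had log2 fold changes of 0.80 [0.67, 0.93] in larp1 and 0.61 [0.46, 0.76] in WT, and passed 2-fold with TMM scaling, at 1.2 in larp1 and 1.11 in WT. CPN60B4 (AT1G26230), known in Arabidopsis for folding a subunit of the plastid NDH complex, stood in larp1 at 4.10 RPM (38 °C) and 7.0 RPM (20 °C), and in WT at 3.33 RPM (38 °C) and 6.93 RPM (20 °C). Its log2 fold change was -0.77 [-1.02, -0.53] in larp1, which did not pass 2-fold, and -1.05 [-1.35, -0.77] in WT, which did. A pseudocount of 0.5 RPM, TMM scaling or median-of-ratios scaling ended the call in WT. With a 1.5-fold threshold, or with the single exon entry of most reads, it was called lower in both genotypes. The difference of its heat responses was 0.29 [-0.09, 0.66], which included no change. The entry of CPN60B4 with the most reads carries the name of a neighbouring gene, AT1G26218. Without that entry the log2 fold changes were -0.64 in larp1 and -1.01 in WT.

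The make-up of the beta transcripts therefore turned over. CPN60B1 held 16.8% [16.3, 17.2] of the RPM of the 4 beta genes in larp1 at 38 °C and 72.7% [72.0, 73.4] in larp1 at 20 °C. In WT it held 19.1% [18.6, 19.5] at 38 °C and 72.4% [71.6, 73.2] at 20 °C. CPN60B2 held 78.8% [78.3, 79.3] of the same sum in larp1 at 38 °C and 17.5% [16.9, 18.1] in larp1 at 20 °C, and 77.1% [76.6, 77.6] in WT at 38 °C and 19.5% [18.7, 20.2] in WT at 20 °C. The shares are exact binomial intervals on reads and do not depend on the scaling of the libraries. Summed over the 4 genes, beta transcripts stood at 588.4 RPM in larp1 at 38 °C, 201.2 RPM in larp1 at 20 °C, 604.8 RPM in WT at 38 °C and 244.4 RPM in WT at 20 °C. The log2 fold change of that sum was 1.55 [1.52, 1.58] in larp1 and 1.31 [1.28, 1.34] in WT, beside 1.39 and 1.2 for CPN60A.

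**Figure D2:**
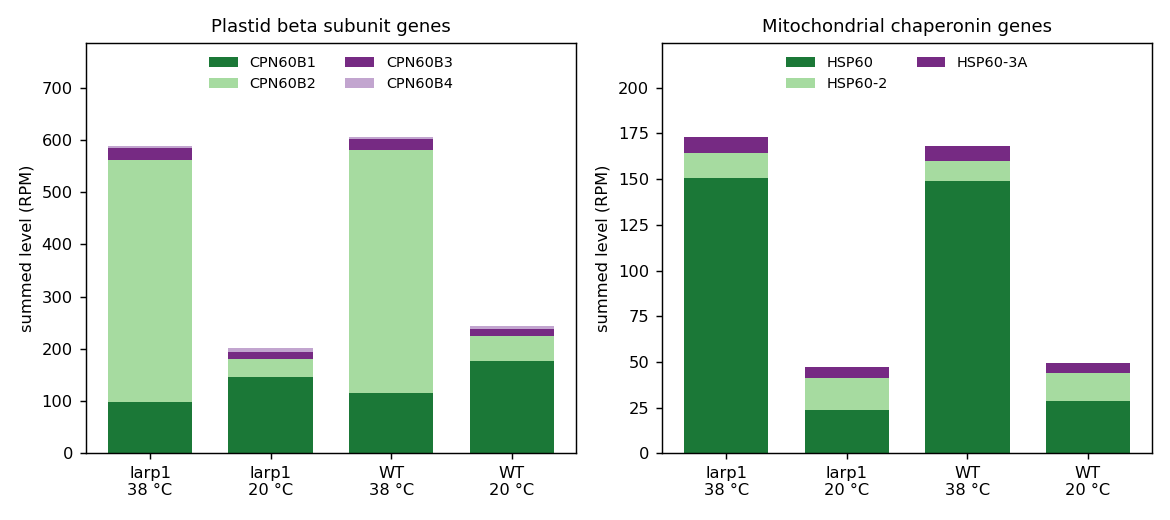
Summed RPM (vertical axis, from 0) of the 4 plastid beta genes (left) and the 3 mitochondrial chaperonin genes (right) in each of the 4 libraries, stacked by gene. CPN60B1 makes up most of the beta sum at 20 °C and CPN60B2 most of it at 38 °C, in larp1 and in WT, and HSP60 makes up most of the mitochondrial sum at 38 °C.

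How far reads of the paralogs can be told apart was examined on the RefSeq sequence of the TAIR10.1 assembly. The coding sequences of CPN60B1 and CPN60B2 shared 88.0% of 1790 aligned bases, and no stretch of 100 bases, the length of a read, was identical between their transcripts; the longest identical run had 59 bases. Over 448 aligned 100-base stretches that lie within 1 coding exon of both genes, the number of differing bases ran from 5 to 20 with a median of 11. The 2 most alike stretches are shown because they are where a read could most easily be placed on the wrong gene; CPN60B1 is at chr1:20718019-20718118 on the minus strand and CPN60B2 at chr3:4390217-4390316 on the plus strand, both 5′ to 3′ along the coding strand, with the differing bases in capitals.
CPN60B1: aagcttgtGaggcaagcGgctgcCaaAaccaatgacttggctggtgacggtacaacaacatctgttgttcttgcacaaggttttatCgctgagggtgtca
CPN60B2: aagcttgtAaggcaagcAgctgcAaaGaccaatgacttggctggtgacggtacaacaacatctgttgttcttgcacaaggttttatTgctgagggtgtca
For HSP60 and HSP60-2, which shared 79.6% of 1732 aligned coding bases, the closest of 286 such stretches differed at 12 bases, and the median was 21. They lie at chr3:8669287-8669386 on the plus strand and chr2:14078051-14078150 on the minus strand.
HSP60: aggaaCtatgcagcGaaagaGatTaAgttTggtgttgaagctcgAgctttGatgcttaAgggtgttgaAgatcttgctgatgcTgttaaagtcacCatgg
HSP60-2: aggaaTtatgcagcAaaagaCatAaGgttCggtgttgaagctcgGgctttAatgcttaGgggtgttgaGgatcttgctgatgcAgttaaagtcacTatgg
How reads with several possible places were counted is not given in the sources used here, so some exchange of reads between CPN60B1 and CPN60B2 was not tested.

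Single exon entries gave the same direction along each gene that rose. Among entries that reached 50 reads in any library, CPN60A was above 0 in 8 of 8 in both genotypes, with log2 fold changes from 1.01 to 1.74 in larp1 and from 0.73 to 1.42 in WT. CPN60B1 was below 0 in 12 of 12, from -0.81 to -0.18 in larp1 and from -0.95 to -0.36 in WT. With TMM scaling CPN60B1 as a whole gene came to -0.18 in larp1 and -0.12 in WT. Single entries were taken with RPM only, so how far their signs depend on scaling was not tested. CPN60B2 was above 0 in 14 of 14, but its entries were uneven. Its lowest entry had log2 fold changes of 2.90 in larp1 and 2.39 in WT, which were different entries, while 1 entry stood at 32.43 RPM in larp1 at 38 °C, 0.31 RPM in larp1 at 20 °C, 29.78 RPM in WT at 38 °C and 0.26 RPM in WT at 20 °C. That entry had log2 fold changes of 6.65 [6.12, 7.38] in larp1 and 6.73 [6.03, 7.79] in WT. The highest entry had 8.68 in larp1 and 7.73 in WT, and another had 7.89 and 6.05. Both stood at 0 RPM in the libraries at 20 °C, so their values depend on the pseudocount. In TAIR10.1 the gene AT3G13480 overlaps CPN60B2 by 553 bases on the opposite strand, and without the use of strand their reads cannot be told apart. The positions of entries are not given in the table, so they were not set against the alignment of the paralogs.

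**Figure D3:**
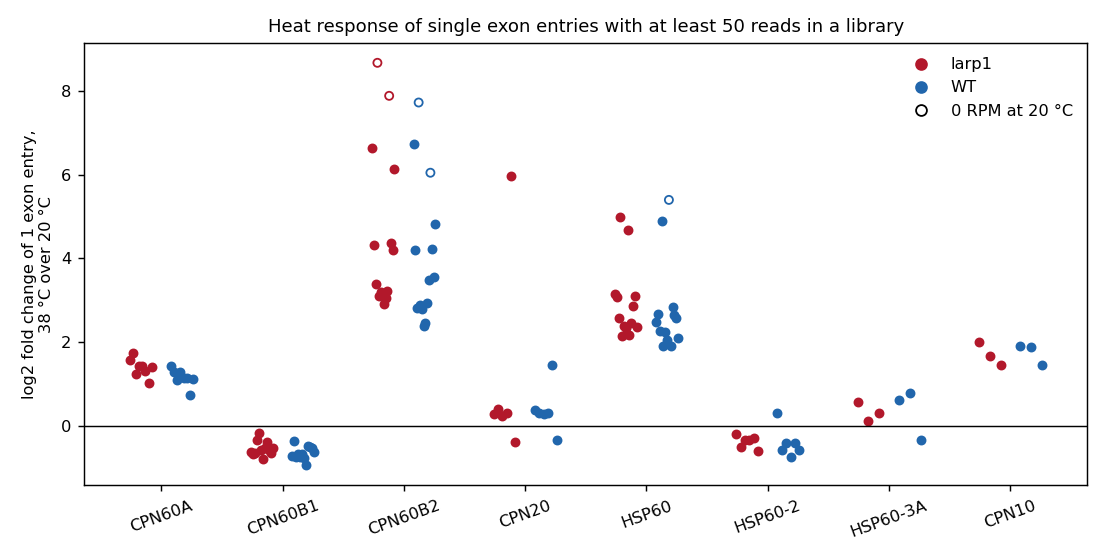
Log2 fold change of 38 °C over 20 °C (vertical axis) for each exon entry with at least 50 reads in a library, for the 7 genes and CPN60B2, larp1 left and WT right within each gene; open circles had 0 RPM at 20 °C, where the value depends on the pseudocount. With RPM scaling, entries of CPN60A, CPN60B2, HSP60 and CPN10 all lie above 0 and those of CPN60B1 all lie below 0.

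The plastid co-chaperonin did not follow the ring subunits past 2-fold. CPN20 stood at 196.2 RPM in larp1 at 38 °C, 159.0 RPM in larp1 at 20 °C, 225.9 RPM in WT at 38 °C and 184.3 RPM in WT at 20 °C. Its log2 fold changes were 0.30 [0.26, 0.34] in larp1 and 0.29 [0.25, 0.34] in WT. These depended on scaling: with TMM they came to 0.70 in larp1 and 0.80 in WT, and with median-of-ratios to 0.74 and 0.82. The heated library was the higher one in both genotypes, and 1 of its 6 entries with at least 50 reads went the other way, with -0.40 in larp1 and -0.34 in WT. A minor entry of CPN20 stood at 1.45 RPM in larp1 at 38 °C, 0.01 RPM in larp1 at 20 °C, 0.80 RPM in WT at 38 °C and 0.28 RPM in WT at 20 °C. In TAIR10.1 a non-coding RNA gene and NPH4 overlap CPN20 on the opposite strand, and without the use of strand their reads cannot be told apart from CPN20. The single-domain plastid co-chaperonin genes had lower levels: CHL-CPN10 (AT2G44650) stood at 14.5 RPM in larp1 at 38 °C, 18.3 RPM in larp1 at 20 °C, 17.3 RPM in WT at 38 °C and 21.3 RPM in WT at 20 °C. An entry of CHL-CPN10 carries the name of a neighbouring gene, AT2G44640, and without it the levels were 10.1, 12, 11.7 and 13.4 RPM in the same libraries. AT3G60210, a GroES-like gene, had log2 fold changes of heat of -0.25 [-0.42, -0.09] in larp1 and 0.02 [-0.17, 0.20] in WT, and the larp1 value turned to 0.14 with TMM and 0.18 with median-of-ratios scaling.

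In the mitochondrion 1 of the 3 ring genes and the co-chaperonin rose. HSP60 stood at 150.8 RPM in larp1 at 38 °C, 24 RPM in larp1 at 20 °C, 149.0 RPM in WT at 38 °C and 28.8 RPM in WT at 20 °C. The 2 heated libraries were nearly level and both lay more than 5-fold above their library at 20 °C, with log2 fold changes of 2.65 [2.58, 2.73] in larp1 and 2.37 [2.29, 2.46] in WT. HSP60-2 stood at 13.3 RPM in larp1 at 38 °C, 17.4 RPM in larp1 at 20 °C, 10.7 RPM in WT at 38 °C and 15.0 RPM in WT at 20 °C. Its log2 fold changes were -0.39 [-0.53, -0.25] in larp1 and -0.48 [-0.65, -0.31] in WT, again near the median of all genes, and with median-of-ratios scaling they came to 0.05 in both genotypes. HSP60-3A stood at 8.66 RPM in larp1 at 38 °C, 6.13 RPM in larp1 at 20 °C, 8.17 RPM in WT at 38 °C and 5.54 RPM in WT at 20 °C, with log2 fold changes of 0.50 [0.30, 0.70] in larp1 and 0.56 [0.32, 0.80] in WT. An entry of HSP60-3A carries the name of the small nuclear RNA gene U6-26; without it the log2 fold changes were 0.47 in larp1 and 0.53 in WT.

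CPN10 stood at 112.3 RPM in larp1 at 38 °C, 32.4 RPM in larp1 at 20 °C, 117.5 RPM in WT at 38 °C and 34.1 RPM in WT at 20 °C. Its log2 fold change was 1.79 [1.72, 1.86] in larp1 and 1.78 [1.70, 1.87] in WT, and all 3 of its exon entries were above 0 in both genotypes. AT1G23100, a related GroES-like gene, had only 67 reads in WT at 38 °C and 88 reads in WT at 20 °C, and its interval of -0.29 [-0.76, 0.19] in WT included no change. In larp1, with 89 reads at 38 °C and 220 reads at 20 °C, it had -0.56 [-0.95, -0.22], and -0.17 with TMM scaling. HSP60 held 87.3% [86.5, 88.0] of the RPM of the 3 mitochondrial ring genes in larp1 at 38 °C and 50.5% [48.8, 52.1] in larp1 at 20 °C. In WT it held 88.7% [88.0, 89.5] at 38 °C and 58.3% [56.3, 60.4] at 20 °C. The sum of the 3 genes stood at 172.8 RPM in larp1 at 38 °C, 47.5 RPM in larp1 at 20 °C, 167.9 RPM in WT at 38 °C and 49.3 RPM in WT at 20 °C, a log2 fold change of 1.86 [1.80, 1.92] in larp1 and 1.77 [1.70, 1.84] in WT. The log2 fold change of CPN10 thus lay within 0.1 of that of the ring gene sum, which HSP60 carried, and not near those of HSP60, HSP60-2 or HSP60-3A singly. In the plastid the log2 fold change of CPN20 was below those of CPN60A and of the beta sum.

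**Figure D4:**
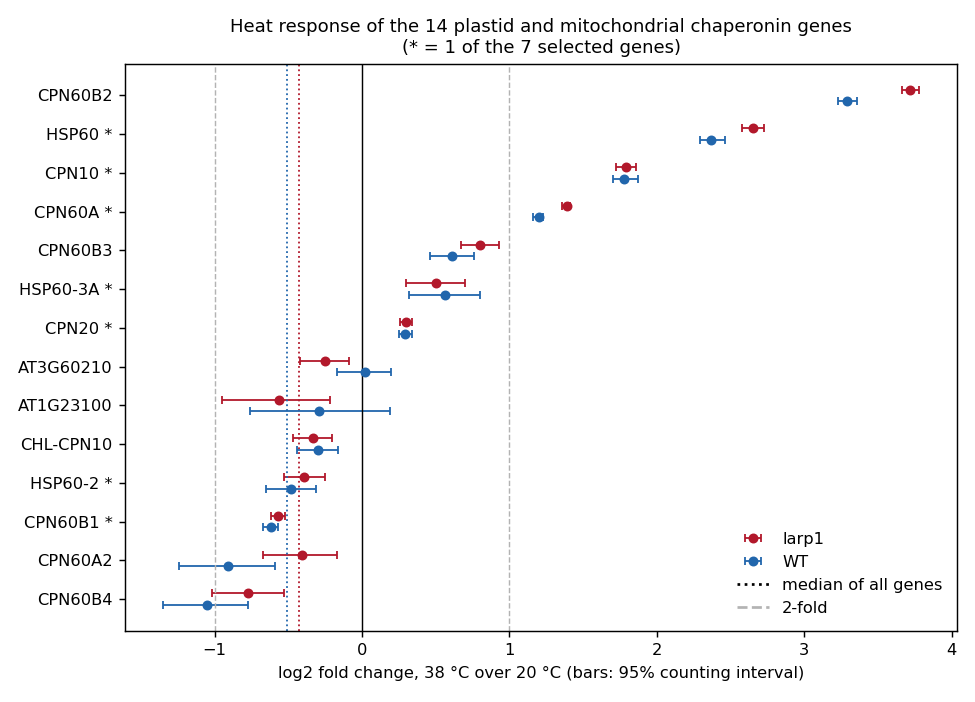
Log2 fold change of 38 °C over 20 °C (horizontal axis) with 95% counting intervals for the 14 plastid and mitochondrial chaperonin genes in larp1 (upper point) and WT (lower point); dotted lines mark the median of all genes compared and dashed lines 2-fold. CPN60B2, HSP60, CPN10 and CPN60A lie beyond 2-fold on the right in both genotypes, and CPN60B4 lies beyond 2-fold on the left in WT.

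The order of the genes by level also changed with temperature. Per kb of coding length, the 7 genes at 20 °C ran CPN20, CPN60A, CPN10, CPN60B1, HSP60, HSP60-2 and HSP60-3A in both genotypes, and in WT the levels per kb were 242.8, 141.3, 116.0, 98.3, 16.6, 8.55 and 3.23 RPM. At 38 °C the order was CPN10, CPN60A, CPN20, HSP60, CPN60B1, HSP60-2 and HSP60-3A in both genotypes, and in WT the levels per kb were 399.8, 323.5, 297.7, 86.1, 64.0, 6.12 and 4.76 RPM. The counting intervals of neighbours in these orders did not overlap, except those of CPN60A (116.3 RPM per kb) and CPN10 (110.3 RPM per kb) in larp1 at 20 °C, and they say nothing about variation between plants. The places depend on the length used. For CPN10 the coding length is 294 bases of a transcript of 1023 bases, and per kb of positions where a 100-base read fits within 1 exon it was 4th of the 7 in all 4 libraries. On that scale CPN20 was 1st in WT at 38 °C, CPN60B1 was 2nd in both libraries at 20 °C, and HSP60-3A stood above HSP60-2 in WT at 38 °C. The change of place between CPN60B1 and HSP60 held on that scale too.

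Between larp1 and WT libraries no member passed the 2-fold rule. Of the 7 genes, 0 were called higher or lower in larp1 against WT at either temperature, and 0 in the difference of the heat responses. Of all genes compared, 4.13% were called at 38 °C (3.93% higher, 0.2% lower), 3.98% at 20 °C (3.49% higher, 0.493% lower) and 2.7% for the difference (2.06% higher, 0.641% lower). At 38 °C the log2 differences of larp1 from WT ran from -0.23 for CPN60B1 to 0.31 for HSP60-2, with a median of -0.07 beside 0.14 over all genes. At 20 °C they ran from -0.28 for CPN60A to 0.21 for HSP60-2, with a median of -0.21 beside 0.04 over all genes. Of the heat-responsive genes, CPN60A, HSP60 and CPN60B2 had -0.28 [-0.32, -0.25], -0.26 [-0.37, -0.16] and -0.43 [-0.51, -0.35] at 20 °C. At 38 °C these genes had -0.09 [-0.12, -0.07], 0.02 [-0.03, 0.07] and -0.01 [-0.04, 0.02]. CPN10, also raised by heat, had -0.07 [-0.16, 0.02] at 20 °C and -0.07 [-0.12, -0.01] at 38 °C. Of the members not called by heat, CPN60B1 and CPN20 had -0.27 and -0.21 at 20 °C, and HSP60-2 and HSP60-3A had 0.21 and 0.14. With TMM scaling HSP60 came to -0.13 at 38 °C. With median-of-ratios scaling CPN60B1 stood further from 0 between genotypes, at -0.39 (38 °C) and -0.34 (20 °C), than between temperatures, at -0.13 (larp1) and -0.09 (WT).

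The heat response of HSP60 was larger in larp1 than in WT by 0.28 [0.17, 0.39] on the log2 scale, that of CPN60A by 0.19 [0.15, 0.23] and that of CPN60B2 by 0.42 [0.34, 0.51]. CPN10 had 0.01 [-0.10, 0.11] and CPN20 0.01 [-0.05, 0.07]. Over all genes the median of this difference was 0.10, and none of these values reached 2-fold. With TMM scaling the difference came to 0.17 for HSP60, 0.08 for CPN60A and 0.31 for CPN60B2. CPN10 and CPN20 then turned to -0.10, and the median of all genes to -0.01. The largest difference of the 14 genes was 0.50 [0.10, 0.90] for CPN60A2 (AT5G18820), a gene of low level, and 0.39 with TMM scaling. The green tissue markers moved in the same comparison, with a median difference of -0.28 over 6 genes, as did the root markers, with a median of 0.41 over the 5 that were compared; their part in the chaperonin values was not tested.

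Partner chaperones of the same organelles were also split. Of 12 organelle HSP70, HSP90 and HSP100 chaperones with their GrpE nucleotide exchange factors, 8 were called higher and 1 lower in larp1, and 7 were called higher and 0 lower in WT, with medians of 1.34 and 1.24. Of all genes compared, 4.19% were called higher and 19.8% lower in larp1, and 4.27% and 25.0% in WT. In each genotype 4 of the 12 were below 0. CLPB4 (AT2G25140), the mitochondrial disaggregase, stood at 1024.9 RPM in larp1 at 38 °C, 16.8 RPM in larp1 at 20 °C, 1059.8 RPM in WT at 38 °C and 17.3 RPM in WT at 20 °C. Its log2 fold change was 5.93 in both genotypes, the highest of the list. Paralogs differed here too: MTHSC70-2 (AT5G09590), a mitochondrial HSP70, had 5.78 in larp1 and 5.39 in WT, and MTHSC70-1 (AT4G37910) had -0.17 and -0.45. MGE2 (AT4G26780), a mitochondrial GrpE known for its role in tolerance to warmth, had 3.39 in larp1 and 3.47 in WT, and MGE1 (AT5G55200) had -0.27 and -0.17. CGE2 (AT1G36390), a plastid GrpE, had the lowest values, -1.14 in larp1, where it was called lower, and -0.76 in WT. Both MTHSC70 and both MGE genes were singled out after their values were seen. MGE2 and CGE2 each have 1 entry that carries another gene's name; without it MGE2 had 3.42 in larp1 and 3.59 in WT, and CGE2 had -1.15 and -0.80.

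Of the 9 genes of CCT, the cytosolic ring that folds actin and tubulin, 0 were called in either genotype. Of all genes compared, 24% were called in either direction in larp1 and 29.2% in WT. The medians of the CCT genes were -0.35 in larp1 and -0.53 in WT, near the median of all genes, and all 9 were below 0. CCT7 (AT3G11830) was highest at -0.21 in both, CCT4 (AT3G18190) lowest in WT at -0.86 and CCT6B (AT5G16070) lowest in larp1 at -0.68. The larp1 median turned to 0.04 with TMM scaling, where 5 of the 9 were above 0. In WT the CCT median then came to -0.03, with 2 of the 9 above 0. With median-of-ratios scaling 6 of the 9 were above 0 in larp1 and 4 in WT. Among 12 genes of Rubisco and its assembly factors, 0 were called higher in either genotype, 3 lower in larp1 and 2 lower in WT. Of all genes compared, 4.19% were called higher and 19.8% lower in larp1, and 4.27% and 25.0% in WT. The medians of the 12 genes were -0.59 in larp1 and -0.50 in WT. RBCS1B (AT5G38430), a Rubisco small subunit with near-identical relatives, was called lower in larp1, at -1.09, and had -0.86 in WT. RBCL (ATCG00490), the plastid-encoded large subunit and best-known client of the plastid chaperonin, stood at 7.59 RPM in larp1 at 38 °C, 5.04 RPM in larp1 at 20 °C, 9.62 RPM in WT at 38 °C and 8.12 RPM in WT at 20 °C. Its log2 fold changes were 0.59 [0.37, 0.81] in larp1 and 0.24 [0.04, 0.45] in WT. The nuclease that depleted ribosomal RNA can also lower other very abundant transcripts, and its part in the values of RBCL was not tested.

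**Figure D5:**
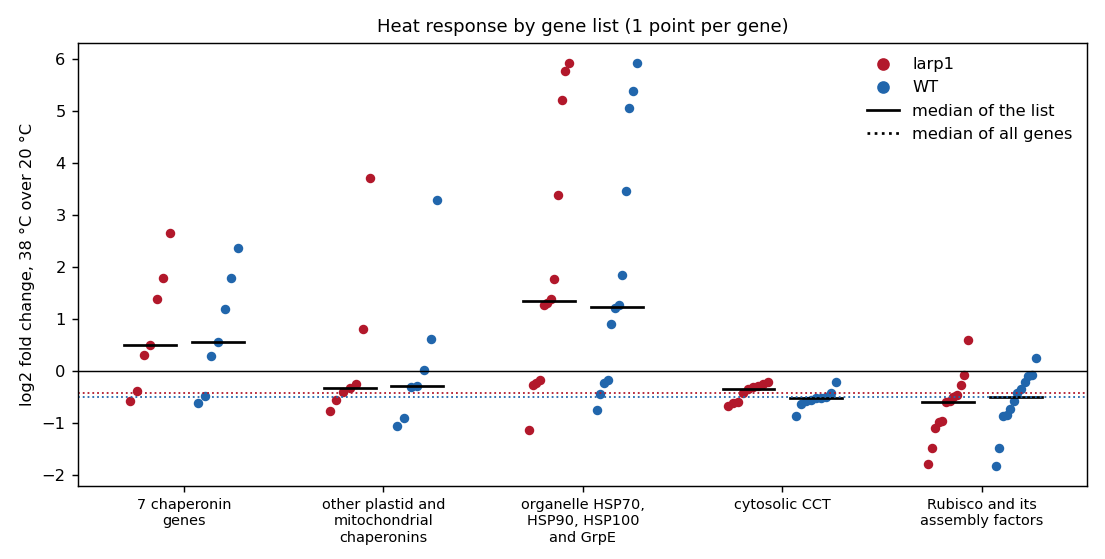
Log2 fold change of 38 °C over 20 °C (vertical axis), 1 point per gene, for the 7 chaperonin genes, the other 7 chaperonin genes of both organelles, and 3 further lists, larp1 left and WT right within each list; bars mark list medians and dotted lines the median of all genes compared. The chaperonin and organelle HSP70, HSP90 and HSP100 lists hold genes on both sides of 0, and the CCT genes all lie below 0.

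The promoters were searched for pairs of heat shock element units, the letters that heat shock factors are known to bind. The motifs were GAANNTTC and TTCNNGAA, each of which reads the same on both strands, in the 250 bases before the annotated gene start in TAIR10.1. A match was present in 16% of 24024 promoters of measured genes, in 24.5% of 727 promoters of nuclear genes called higher by heat in larp1 and in 25.9% of 715 in WT. Of the 7 genes, CPN20 and HSP60-3A had 1 match each, and the genes that rose, CPN60A, HSP60 and CPN10, had none in this window. Among the beta genes CPN60B2 had 1 match, as did CPN60B4, which was called lower by heat in WT, and CPN60B1 and CPN60B3 had none. The windows of CPN60B1 and CPN60B2, the closest pair in sequence, and of CPN20 are shown 5′ to 3′ along the gene's strand with matches in capitals: CPN60B1 is chr1:20719262-20719511 on the minus strand, CPN60B2 chr3:4388965-4389214 on the plus strand and CPN20 chr5:7014412-7014661 on the plus strand.
CPN60B1: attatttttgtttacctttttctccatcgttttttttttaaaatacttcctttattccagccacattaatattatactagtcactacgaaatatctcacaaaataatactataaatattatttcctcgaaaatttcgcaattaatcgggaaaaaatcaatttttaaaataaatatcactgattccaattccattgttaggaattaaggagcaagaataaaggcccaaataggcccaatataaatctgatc
CPN60B2: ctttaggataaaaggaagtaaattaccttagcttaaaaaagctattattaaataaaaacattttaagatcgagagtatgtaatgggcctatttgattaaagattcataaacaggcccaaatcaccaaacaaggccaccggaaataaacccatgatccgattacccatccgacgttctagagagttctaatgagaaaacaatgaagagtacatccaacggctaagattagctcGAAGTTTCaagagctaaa
CPN20: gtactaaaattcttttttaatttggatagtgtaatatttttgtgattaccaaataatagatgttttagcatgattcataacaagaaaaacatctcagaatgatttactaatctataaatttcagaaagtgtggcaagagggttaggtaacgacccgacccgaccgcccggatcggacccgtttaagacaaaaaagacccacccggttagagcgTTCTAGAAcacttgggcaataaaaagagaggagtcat
The match of CPN60B2 begins 18 bases and that of CPN20 37 bases before the annotated start. A match is a run of letters and not evidence of binding, and annotated starts can lie away from the starts used in these plants. Forms of 3 units, in which either motif is followed after NN by a further GAA or TTC in alternation, occurred in 0.387% of all promoters and in none of the 14 chaperonin genes.

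The genes with profiles most like the most variable member of each organelle were found by the distance of their profiles. It was Euclidean, between log2 RPM profiles over the 4 libraries, each centred on its own mean, among 7647 nuclear genes with at least 500 reads in every library. Nearest to CPN60A were BTI2 (AT4G11220) at a distance of 0.063, AT5G12040 at 0.074 and AT2G43630 at 0.082. Nearest to HSP60 were SR30 (AT1G09140) at 0.102, NF-YC2 (AT1G56170) at 0.108 and KUP6 (AT1G70300) at 0.156. With 4 libraries, 2 temperatures and 2 genotypes, such profiles hold little beyond the size of the heat response.

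The authors' deposited table of genes raised by heat in both genotypes holds 4 of the 14 genes, CPN60A, HSP60, CPN10 and CPN60B2. The authors' deposited table gives ratios of 38 °C over 20 °C of 2.61 in larp1 and 2.29 in WT for CPN60A, and of 6.22 and 5.14 for HSP60. For CPN10 the authors' deposited table gives 3.46 and 3.45, and for CPN60B2 13.2 and 9.81. CPN60B4 stands in the authors' deposited table of genes lowered in WT and not in larp1, with ratios of 0.547 in larp1 and 0.453 in WT.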

How the data were processed

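RNA-seq was analysed in 4 libraries, larp1 and WT at 38 °C and at 20 °C. Per the labels' protocols, total RNA was depleted of ribosomal RNA with a duplex-specific nuclease, which can also lower other very abundant transcripts, and read as single ends of 100 bp. The submitters' processing notes name BWA 0.5.9 and TAIR10. How reads were counted, and whether strand was used, is not given in the sources used here. Reads that cross exon junctions may be missing, which would lower genes of many short exons per length. Per the file headers, the deposited table gives RPM for each exon of each transcript; since its columns sum to between 1056659.82 and 1090376.27, more than RPM can, the values were read as a signal. The authors' gene tables give such a signal summed per gene and the fold of heat within a genotype as a ratio, per the file headers.

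Of 181379 entries for 25819 genes, 132172 were distinct by exact value within a gene. Entries of at least 0.5 RPM that were alike within 1% in all 4 libraries were also counted once, leaving 131207, because slightly different forms of 1 exon would otherwise count more than once in CPN60B1 and CPN20; this was chosen after the table was seen. Low values were whole multiples of 1 read, which gave the depths and read numbers; at least 99.95% of values up to 30 RPM fitted, against 42.6% to 74.4% expected from rounding alone. No count model was run, since there is 1 library per group and values are rounded. The worth of 1 read in each library was added to its RPM before taking log2, so large folds of low genes are understated. This worth differed between libraries, so a gene near 0 RPM in both libraries gets a fold away from 0. AP3, at 0 RPM in both larp1 libraries, got a log2 fold change of heat of 0.73. Genes with at least 50 reads in either library were compared, with conditional binomial intervals, and the difference of heat responses with a normal interval. Named genes were the 14 organelle chaperonin genes, the highest, lowest and few called genes of other lists, and the nearest profiles. Some genes of the Rubisco list that fall under this rule are not reported here. Members and lists were chosen with earlier results of these data known. Coordinates and sequences are of RefSeq TAIR10.1 with its own annotation; the deposited table has no coordinates, and none were carried between releases. Alternatives were other scalings, minimums, pseudocounts, thresholds and gene sums. The calling was tested on simulated reads with counting noise only, so that test could not cover variation between plants and libraries. Scripts ran in Python 3.11.15 with Biopython 1.88, matplotlib 3.10.9, scipy 1.17.1, pandas 2.3.3 and numpy 2.4.6.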

Additional observations from a re-analysis of the deposited data

How the results depend on the processing

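CPN60A, HSP60, CPN10 and CPN60B2 were called higher by heat in both genotypes under every alternative run. The median of all genes moved with scaling: in larp1 from -0.43 to -0.04 with TMM and 0.00 with median-of-ratios, and in WT from -0.51 to -0.01 and 0.02. Calls over all genes were then 1242 higher and 2053 lower in larp1 and 1325 and 2194 in WT with TMM, against 857 and 4051 and 827 and 4843 with RPM. The median of the 7 genes with TMM was 0.89 for heat in larp1, 1.06 for heat in WT, -0.22 for larp1 against WT at 38 °C, -0.25 at 20 °C and -0.06 for the difference of heat responses; with median-of-ratios it was 0.93, 1.09, -0.23, -0.28 and -0.05. HSP60-3A was also called higher in WT with both, and CPN60B3 in both genotypes with both, with the 1.5-fold threshold and with the single exon entry of most reads (1.23 in larp1, 1.28 in WT). With a 1.5-fold threshold 1 of the 7 genes, CPN60B1, was called lower by heat in WT. At that threshold 8875 of the 19387 genes compared were called lower in WT, and 8097 of 20475 in larp1. The other counts of called members stayed within 1.5 times. No paired analysis was possible because each group has 1 library. Depth limits AT1G23100, CPN60B4, CPN60A2 and HSP60-3A, with the widest heat intervals of the 14 genes. The cause of these shifts was not tested.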

Other observations

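Genes of the alpha family other than CPN60A were minor. CPN60A2 (AT5G18820), known from embryo development, stood at 4.31 RPM in larp1 at 38 °C, 5.76 RPM in larp1 at 20 °C, 2.76 RPM in WT at 38 °C and 5.22 RPM in WT at 20 °C. CPN60A held 99.2% [99.1, 99.3] of the RPM of both alpha genes in larp1 at 38 °C and 97.3% [97.0, 97.5] in larp1 at 20 °C, and 99.5% [99.4, 99.6] in WT at 38 °C and 97.9% [97.7, 98.2] in WT at 20 °C. The alpha transcripts therefore came from 1 gene at both temperatures, unlike the beta transcripts.

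The plastid HSP70 pair did not split as the mitochondrial pair did. CPHSC70-1 (AT4G24280) had log2 fold changes of heat of 1.27 in larp1 and 1.26 in WT, and CPHSC70-2 (AT5G49910) had 1.39 in larp1 and 0.90 in WT. CPHSC70-2 stood at 378.5 RPM in larp1 at 38 °C, 144.8 RPM in larp1 at 20 °C, 423.2 RPM in WT at 38 °C and 226.4 RPM in WT at 20 °C. Both genes were picked out after their values were seen.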
